A study of Mus musculus with 12 samples.

Results

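The 44 genes described here are mouse genes of hepatic stellate cell activation and of the extracellular matrix, chosen by name, with earlier results of these data known. They comprise collagens, laminin and other matrix proteins, small proteoglycans, the enzymes that crosslink or degrade them with their inhibitors, growth factors and receptors of fibrogenic signaling, and genes of the contractile and of the resting stellate cell. All 44 were found among the 35275 genes of the expression table, and 36 had a mean of at least 0.5 FPKM (fragments per kilobase of transcript, scaled to the mapped fragments of the library) over the 12 libraries and were tested with 12466 genes in all. The other 8, Col5a2, Lox, Loxl2, Thbs1, Mmp9, Mmp13, Tgfb2 and Tgfb3, lay under that level and are given as values.

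Hepatic stellate cells lie between hepatocytes and the sinusoidal endothelium, where in healthy liver they store vitamin A as retinyl esters. In chronic injury, TGF-beta and PDGF signals turn them into contractile myofibroblasts that lay down fibrillar collagens, and the balance of metalloproteinases and their tissue inhibitors decides how much of that matrix stays. A diet deficient in methionine and choline (MCD) is a standard way to produce steatohepatitis with such fibrosis in rodents.

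RNA-seq was performed on whole livers of male wild-type (WT) mice and of Pctp-/- mice, a whole-body knockout of phosphatidylcholine transfer protein (PC-TP, which carries phosphatidylcholine between membranes), on a chow diet or on the MCD diet. Each of the 4 groups (WT chow, Pctp-/- chow, WT MCD and Pctp-/- MCD) held 3 mice with 1 library each, and all 12 libraries were of liver tissue with no sorting of cells. The ages of the mice and the length of MCD feeding are not given in the sources used here. The comparisons address which matrix and stellate cell transcripts moved with the diet in each genotype, with the knockout on each diet, and whether the knockout changed the response to the diet.

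Libraries held between 30486576 and 55179468 uniquely mapped reads. The chow and MCD libraries differed in read quality as well as in diet, with 77.59% to 79.41% of reads uniquely mapped on chow against 85.66% to 87.55% on MCD and a GC content of 49.83% to 51.24% against 48.42% to 49.16%, so the diet and the sequencing of its libraries cannot be told apart. Pctp, the deleted gene, was between 1.21 and 7.90 FPKM in the 6 WT libraries and between 0.156 and 0.566 FPKM in the 6 Pctp-/- libraries. Hepatocyte markers summed to between 41779 and 74649 FPKM in every library, as in liver, against 54.1 to 139 FPKM for the 19 stellate cell markers that are not among the 44 genes.

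A pair of WT libraries stood apart for these genes. WT MCD replicate 1 had the highest level of its group for 35 of the 36 tested members, against 48.0% of all genes tested, and its members lay at a median of 1.68 times the mean of the other 2 WT MCD libraries, against 1.05 times over all genes. WT chow replicate 2 had the lowest level of its group for 29 of the 36, against 39.5% of all genes, at a median of 0.607 times the mean of the other 2. Results of members that rest on these libraries are given with and without them, while the lists of other genes were counted only with them.

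**Figure D1:**
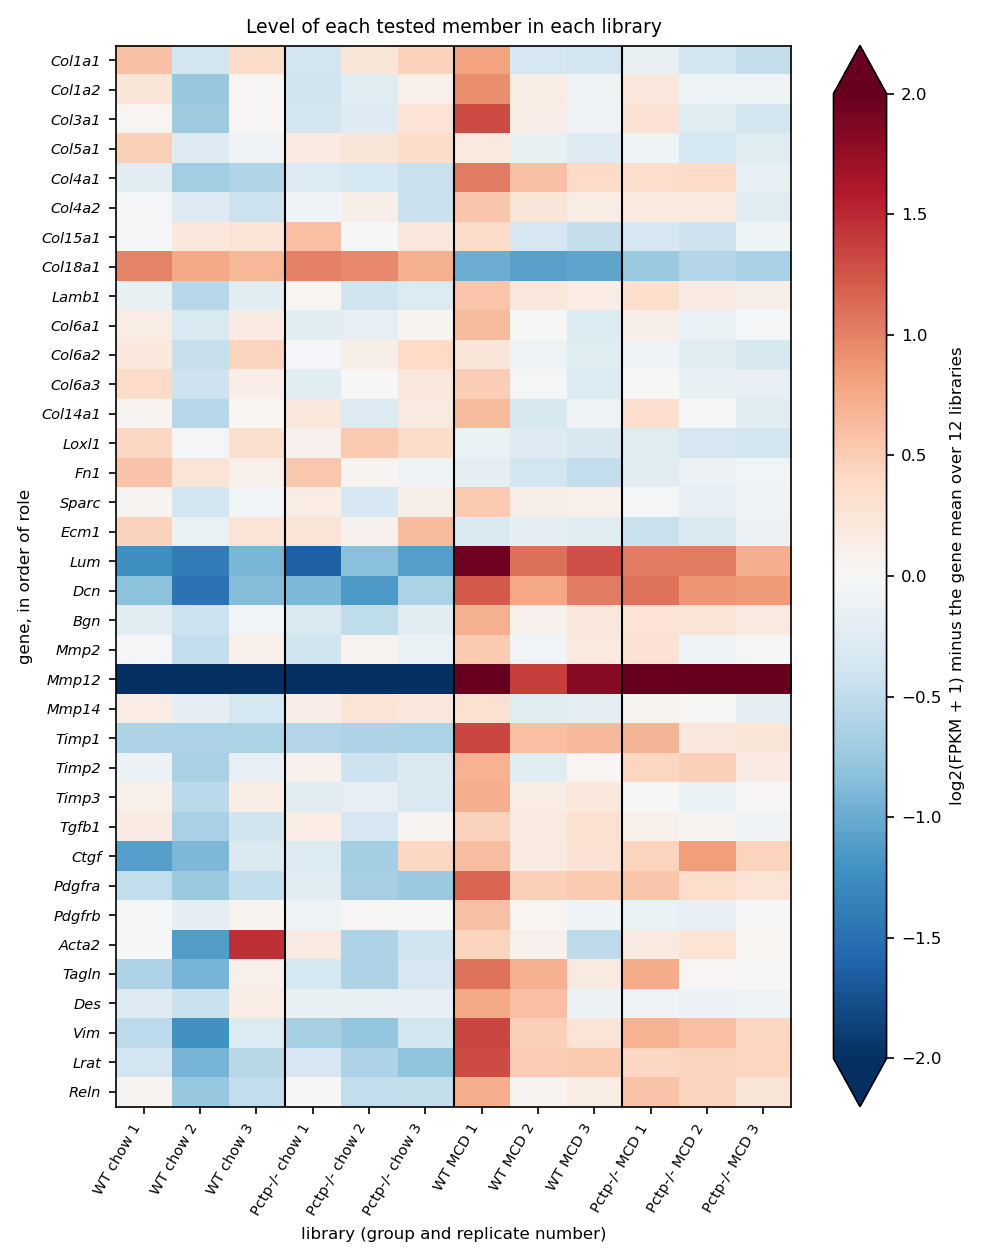
Each row is 1 of the 36 tested members and each column 1 library, with color for log2(FPKM + 1) minus the gene's mean over the 12 libraries and black lines between the 4 groups. The column of WT MCD replicate 1 is the highest of its group for 35 of 36 members, and the column of WT chow replicate 2 the lowest of its group for 29 of 36.

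On MCD against chow the module differed in parts, where the diet and the sequencing of its libraries cannot be told apart. Lum, Dcn, Bgn, Col4a1, Lamb1, Timp1, Mmp12, Ctgf, Pdgfra, Vim, Lrat and Reln rose in both genotypes, while Col1a1, Col1a2, Col3a1 and Acta2 were called in neither. In WT livers, 16 of the 36 tested members rose on MCD (44.4%) and 4 fell (11.1%), where 34.5% of all genes tested rose and 22.5% fell at the same threshold, a Benjamini-Hochberg adjusted p under 0.05 in limma. In Pctp-/- livers 12 rose (33.3%) and 5 fell (13.9%), where 26% of all genes rose and 24.4% fell. With all 12 libraries, the share of members that rose was thus somewhat above that of all genes in either genotype, and the share that fell was below it. In Pctp-/- livers the excess of risers rested on single libraries. Without Pctp-/- chow replicate 2, chow replicate 3 or MCD replicate 1, 8, 9 and 8 of the 36 members rose. Beside them 2696, 3136 and 2704 of the 12466 genes rose, so the shares were close. Without Pctp-/- chow replicate 1 or MCD replicate 2 or 3, 12, 9 and 10 members rose beside 2994, 2903 and 2665 genes. The median log2 fold change of the members was 0.49 in WT and 0.19 in Pctp-/- livers, beside medians over all genes of 0.11 and 0.04. Without both of the libraries that stood apart, an alternative chosen after the data were seen, 9 members rose and 6 fell in WT livers while 3183 of 12466 genes rose and 2368 fell, so the share of members that rose was no longer above that of all genes, and the median of the members came to 0.04 beside 0.06 over all genes. Under median-of-ratios scaling, 3546 genes rose and 3527 fell in WT livers, against 4300 and 2810 without rescaling, the median over all genes moved from 0.11 to -0.0013, and 15 members rose and 4 fell. In whole liver, more cells of a type and more RNA per cell cannot be told apart.

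Of the 36 tested members, the 12 genes given first, from Lum to Reln, rose in both genotypes and 3 fell in both (Col18a1, Loxl1 and Ecm1). A further 5 were called in WT livers and not in Pctp-/- livers (Col4a2, Tgfb1, Tagln and Des, which rose, and Fn1, which fell), and 2 in Pctp-/- livers and not in WT livers (Col5a1 and Col15a1, which fell). For none of these 7 was the difference between the genotypes in the response to the diet called when it was itself tested. The remaining 14 were called in neither. With each of the 12 libraries left out in turn, 14 of the 20 calls in WT livers and 11 of the 17 in Pctp-/- livers held throughout, and Bgn, Col18a1, Dcn, Lrat, Lum, Mmp12, Pdgfra, Timp1 and Vim held in both.

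**Figure D2:**
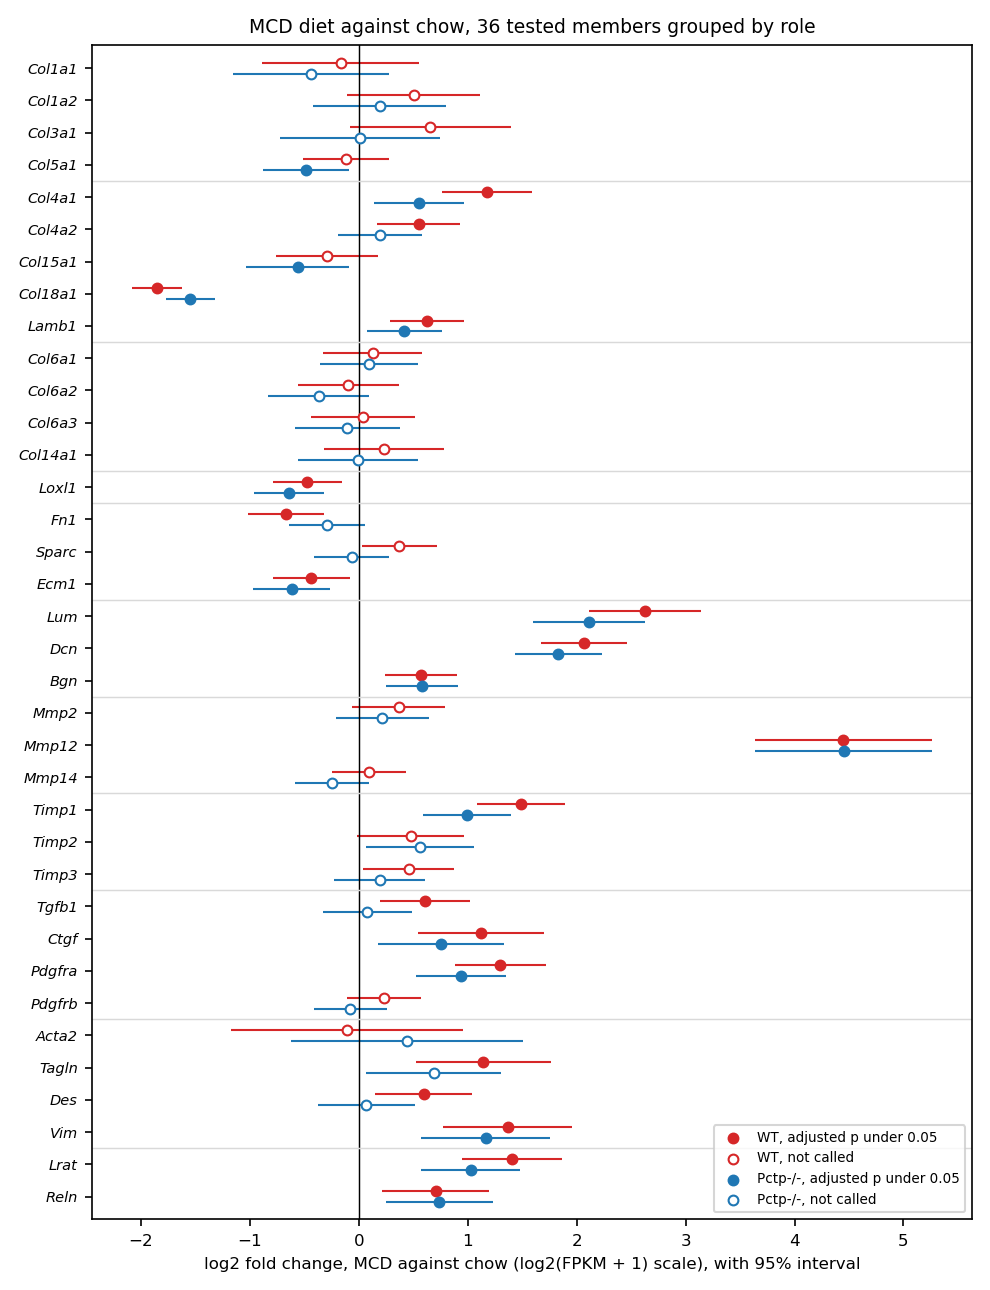
The log2 fold change of MCD against chow on the log2(FPKM + 1) scale is plotted on the horizontal axis for the 36 tested members in WT (red) and Pctp-/- livers (blue), with 95% intervals from limma, filled points for an adjusted p under 0.05, and grey lines between roles. Mmp12 (4.45 in both), Lum and Dcn lie farthest to the right and Col18a1 (-1.85 and -1.55) farthest to the left, while the intervals of Col1a1, Col1a2, Col3a1 and Acta2 cross 0 in both genotypes.

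The fibrillar collagens I and III, which form the tensile fibers of scar tissue, were low in these livers, and their levels overlapped between the diets. Col1a1 (chr11:94936224-94953042, plus strand, GRCm38), which encodes the alpha-1 chain of collagen I, read 2.76, 0.932 and 2.23 FPKM in the 3 WT chow livers and 3.35, 0.991 and 0.913 FPKM in the 3 WT MCD livers. On chow the Pctp-/- livers were at 0.914, 1.97 and 2.45 FPKM, and on MCD at 1.26, 0.929 and 0.796 FPKM. The groups overlapped in either genotype, and the highest value of all was WT MCD replicate 1. The log2 fold change on MCD was -0.17 ± 0.33 (SE, 3 mice against 3, limma adjusted p = 0.684) in WT and -0.44 ± 0.33 (adjusted p = 0.288) in Pctp-/- livers. The sign in WT depended on single libraries, and without both WT chow replicate 2 and WT MCD replicate 1 the value was -0.84 with an adjusted p of 0.0188.

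Col1a2 (chr6:4504814-4541544, plus strand), the alpha-2 chain of the same collagen, was at 3.49, 1.24 and 2.86 FPKM in WT chow livers and at 6.30, 3.24 and 2.57 FPKM in WT MCD livers, again with overlap. For Pctp-/- livers the levels were 1.91, 2.24 and 3.09 FPKM on chow and 3.40, 2.61 and 2.59 FPKM on MCD. Its changes of 0.50 ± 0.28 (adjusted p = 0.145) and 0.19 ± 0.28 (adjusted p = 0.599) were not called. Col3a1 (chr1:45311538-45349706, plus strand), which encodes collagen III and is co-deposited with collagen I, was the most abundant of the fibrillar collagens among the 44 genes. It was at 6.51, 3.44 and 6.44 FPKM on chow and at 17, 6.96 and 5.80 FPKM on MCD in WT livers, so that 1 of the 3 MCD livers lay far above the rest. Pctp-/- livers on chow were at 4.67, 5.10 and 7.77 FPKM and on MCD at 7.91, 5.15 and 4.65 FPKM. The WT change was 0.66 ± 0.34 (adjusted p = 0.116), passed the threshold without WT MCD replicate 3 (0.93, adjusted p = 0.0449) and was -0.023 without WT chow replicate 2 and WT MCD replicate 1, and the Pctp-/- change was 0.01 ± 0.34 (adjusted p = 0.984).

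Collagen V regulates the diameter of collagen I fibers. Its chain Col5a1 fell in Pctp-/- livers, from 1.51, 1.64 and 1.88 FPKM on chow to 1.09, 0.753 and 0.882 FPKM on MCD (-0.49 ± 0.18, adjusted p = 0.0398). That call was lost without any of Pctp-/- chow replicates 2 and 3 or Pctp-/- MCD replicates 2 and 3, with adjusted p between 0.0789 and 0.118. In WT livers the group means of Col5a1 were 1.36 ± 0.649 FPKM (SD, n = 3) on chow and 1.14 ± 0.362 FPKM on MCD. Col5a2, under the level for testing, had means of 0.294 FPKM on WT chow, 0.236 on Pctp-/- chow, 0.956 on WT MCD and 0.487 on Pctp-/- MCD, and its groups did not overlap between diets in either genotype. In a fit without the minimum level, where 21.3% of genes rose in WT and 15.6% in Pctp-/- livers, Col5a2 rose in WT (0.56 ± 0.16, adjusted p = 0.0179) and was not called in Pctp-/- livers (0.26 ± 0.16, adjusted p = 0.265). That fit called 21 of 44 members in WT livers (18 rose and 3 fell), beside 7702 of 22396 genes in either direction (4776 rose and 2926 fell). In Pctp-/- livers it called 13 of 44 (10 rose and 3 fell), beside 6457 of the 22396 genes (3487 rose and 2970 fell). In it Ecm1 and Des in WT and Col4a1, Lamb1, Ctgf, Col5a1 and Col15a1 in Pctp-/- livers were no longer called (adjusted p from 0.058 to 0.0873).

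**Figure D3:**
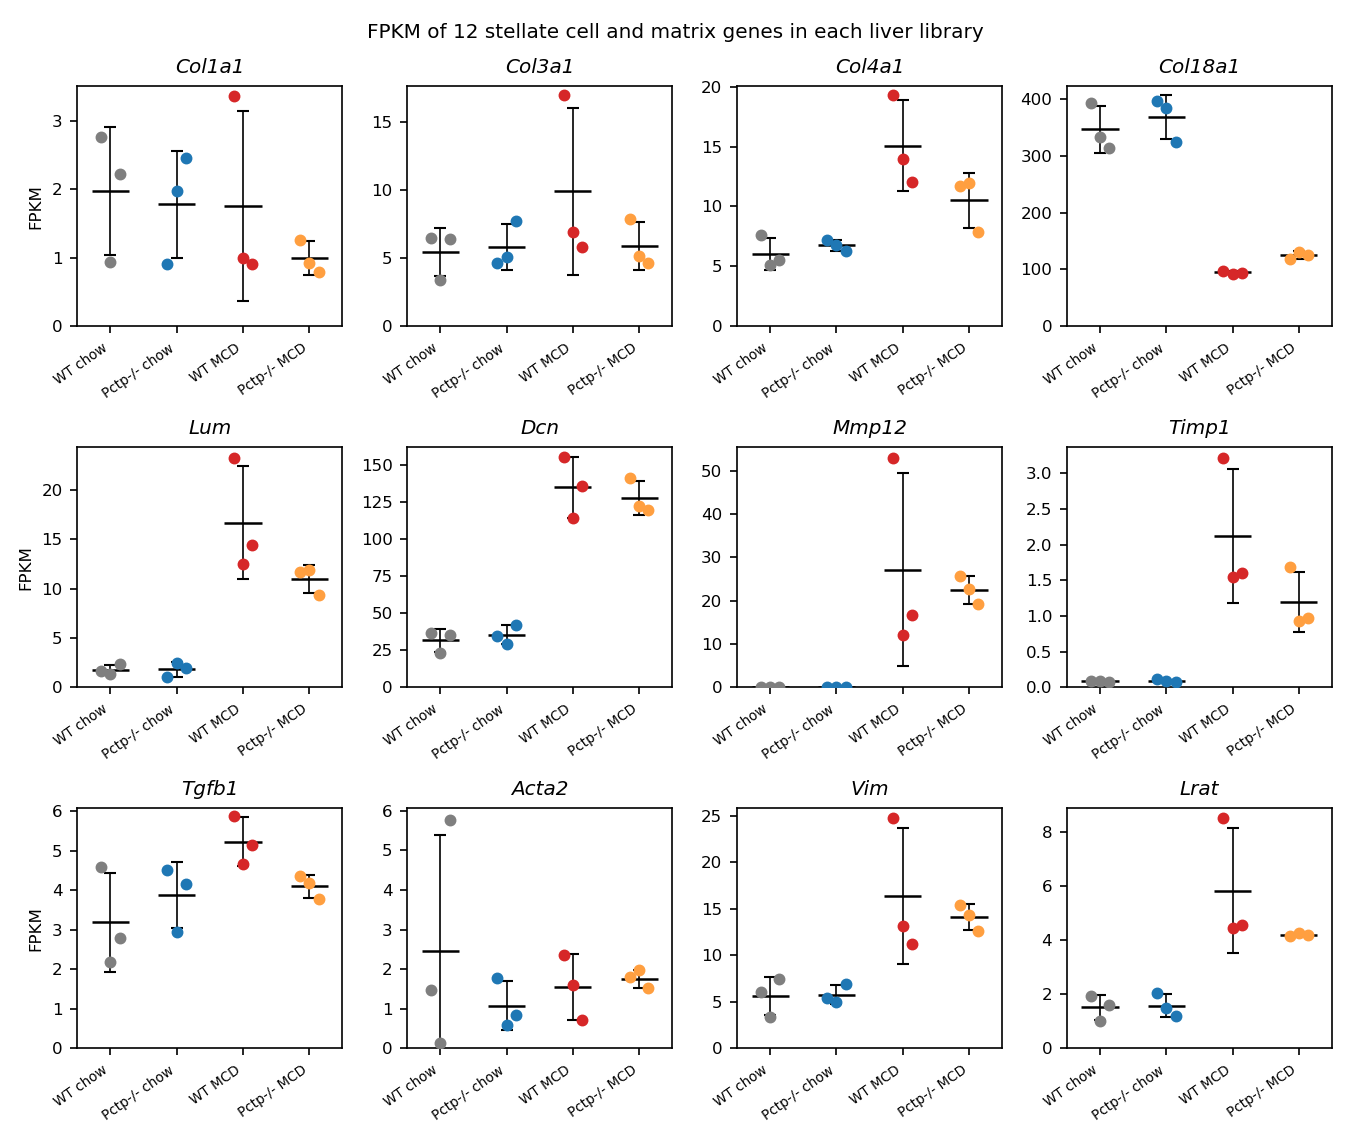
FPKM of 12 members (vertical axes, each from 0) is shown for every library as a point, with the group mean as a horizontal line and 1 SD as the error bar (n = 3 mice a group). Lum, Dcn, Mmp12, Timp1, Vim and Lrat on MCD lie above every chow library of the same genotype and Col18a1 below, whereas the points of Col1a1, Col3a1 and Acta2 overlap across diets.

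Basement membrane collagens moved in opposite directions. Col4a1 (chr8:11198423-11312826, minus strand), which encodes a chain of the collagen IV network, read 7.58, 5.11 and 5.51 FPKM in WT chow and 19.3, 13.9 and 12 FPKM in WT MCD livers. The Pctp-/- livers were at 7.19, 6.82 and 6.29 FPKM on chow and at 11.7, 12 and 7.87 FPKM on MCD. Every MCD liver was above every chow liver of its genotype, with changes of 1.18 ± 0.19 (adjusted p = 0.000251) in WT and 0.55 ± 0.19 (adjusted p = 0.0297) in Pctp-/- livers. The Pctp-/- call was lost without any of Pctp-/- chow replicates 2 and 3 or Pctp-/- MCD replicates 1 and 2, with adjusted p between 0.0637 and 0.108, and when rescaled to a common total (0.0659). Its partner chain Col4a2 begins at chr8:11312805 on the opposite strand, so the genes overlap only from there to 11312826. In that short stretch reads of the pair could be told apart only by strand. Col4a2 rose in WT livers from a mean of 6.55 ± 1.10 to 10.04 ± 1.68 FPKM (SD, n = 3, log2 fold change 0.55 ± 0.18, adjusted p = 0.0188). This call was lost without WT chow replicate 2, WT chow replicate 3 or WT MCD replicate 1 (adjusted p from 0.0501 to 0.0793), without both of the libraries that stood apart (0.42, adjusted p = 0.146), and under median-of-ratios scaling (0.0541) or rescaling to a common total (0.0603). In Pctp-/- livers Col4a2 was not called (0.19 ± 0.18, adjusted p = 0.382). Lamb1, the beta-1 chain of laminin, rose in both genotypes, from 1.19 ± 0.309 to 2.38 ± 0.525 FPKM in WT (0.62 ± 0.16, adjusted p = 0.0049) and from 1.35 ± 0.370 to 2.12 ± 0.281 FPKM in Pctp-/- livers (0.42 ± 0.16, adjusted p = 0.0422, a call lost without any of 7 libraries, with adjusted p up to 0.15, and under quantile normalization, at 0.0519, or rescaling to a common total, at 0.0798). Without both libraries that stood apart, the WT change of Lamb1 was 0.38 and not called (adjusted p = 0.0769).

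Col18a1 (chr10:77052178-77166548, minus strand), which encodes collagen XVIII, the heparan sulfate collagen of the sinusoidal matrix and precursor of endostatin, was the most abundant member on chow and fell the most. It was at 392, 333 and 313 FPKM in WT chow livers and at 98.1, 92.3 and 93.9 FPKM in WT MCD livers. On chow the Pctp-/- livers were at 396, 383 and 324 FPKM, and on MCD at 118, 131 and 126 FPKM. All 6 MCD libraries were thus below all 6 chow libraries, and on MCD the 3 Pctp-/- livers were above the 3 WT livers. The diet effects were -1.85 ± 0.10 (adjusted p = 1.02e-07) and -1.55 ± 0.10 (adjusted p = 4.76e-07), and both held without any single library. Slc19a1 overlaps Col18a1 on the opposite strand, and whether the counting used strand is not given in the sources used here. Col15a1, which encodes the related basement membrane zone collagen XV, fell in Pctp-/- livers from 1.67, 0.781 and 1.07 to 0.391, 0.319 and 0.663 FPKM (-0.56 ± 0.22, adjusted p = 0.0454), a call lost without any of 8 of the 12 libraries (adjusted p from 0.0503 to 0.156). In WT livers its means were 0.962 ± 0.210 and 0.648 ± 0.549 FPKM.

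The beaded-filament collagens VI, which link cells to interstitial fibers, and collagen XIV, which decorates fibrils, were not called on MCD. Col6a1, Col6a2, Col6a3 and Col14a1 had log2 fold changes between -0.10 and 0.23 in WT and between -0.37 and 0.09 in Pctp-/- livers. Their highest group mean was 9.43 ± 3.78 FPKM for Col14a1 in WT MCD, where the libraries read 13.7, 6.63 and 7.93 FPKM. Without the 2 WT libraries that stood apart, Col6a2 passed the threshold as lower in WT livers (-0.50, adjusted p = 0.0344).

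Lysyl oxidases crosslink collagen and elastin, and the most abundant of the 3 listed on chow, Loxl1, fell in both genotypes. Its level was 1.13, 0.560 and 1.00 FPKM on chow and 0.456, 0.334 and 0.283 FPKM on MCD in WT livers, and the groups did not overlap in either genotype. The change was -0.47 ± 0.15 in WT (adjusted p = 0.0154, and 0.0535 to 0.0611 without WT chow replicate 1 or 3) and -0.64 ± 0.15 in Pctp-/- livers (adjusted p = 0.00324). Loxl2, under the level for testing, went the other way, with means of 0.305 and 0.956 FPKM in WT and 0.189 and 0.520 FPKM in Pctp-/- livers, and in the fit without a minimum level it rose in WT livers (0.55 ± 0.16, adjusted p = 0.0236). Lox had group means between 0.0482 and 0.294 FPKM.

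Among matrix glycoproteins, Fn1 and Ecm1, which are abundant in liver, fell, and Sparc did not pass the threshold. Fn1, which encodes fibronectin, was at 309, 248 and 223 FPKM in WT chow and 181, 160 and 146 FPKM in WT MCD livers, without overlap, and fell by 0.67 ± 0.16 on the log2 scale (adjusted p = 0.00366). For Pctp-/- livers the levels were 300, 214 and 194 FPKM on chow and 178, 190 and 199 FPKM on MCD, where the groups overlapped (-0.29 ± 0.16, adjusted p = 0.146). The WT and Pctp-/- changes of Fn1 differed by 0.37 ± 0.23, which was not called (adjusted p = 0.465). Ecm1, a secreted protein that restrains activation of latent TGF-beta, went from 54.6 ± 11.1 to 39.5 ± 1.59 FPKM in WT (-0.44 ± 0.16, adjusted p = 0.0351) and from 59.9 ± 12.2 to 38.3 ± 4.43 FPKM in Pctp-/- livers (-0.62 ± 0.16, adjusted p = 0.00712). The WT call of Ecm1 was lost without WT chow replicate 1 or 3 or any of the 3 WT MCD libraries (adjusted p from 0.0576 to 0.137). Sparc, a collagen-binding glycoprotein, had means of 26.5 ± 4.14 and 34.7 ± 6.24 FPKM in WT (adjusted p = 0.0629) and 28.6 ± 5.15 and 27.0 ± 1.41 FPKM in Pctp-/- livers. Thbs1, which activates latent TGF-beta, was under the level for testing, with its highest group mean of 0.537 FPKM on WT MCD.

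The small leucine-rich proteoglycans, which bind collagen fibrils and growth factors, rose together, 3 of 3 in both genotypes. Lum (chr10:97565128-97572703, plus strand), which encodes lumican, was at 1.68, 1.37 and 2.33 FPKM in WT chow and at 23.2, 12.5 and 14.4 FPKM in WT MCD livers. Pctp-/- livers on chow were at 1.03, 2.5 and 1.93 FPKM and on MCD at 11.7, 11.9 and 9.33 FPKM. Its lowest MCD library was above its highest chow library, and the changes were 2.63 ± 0.24 (adjusted p = 3.02e-06) and 2.11 ± 0.24 (adjusted p = 2.09e-05). Dcn (chr10:97479609-97518143, plus strand), the neighboring gene that encodes decorin, which can bind TGF-beta, was the most abundant member that rose. Its values were 36.9, 23.0 and 35.6 FPKM on chow and 155, 114 and 136 FPKM on MCD in WT, and 34.8, 29.3 and 42.3 FPKM against 141, 123 and 120 FPKM in Pctp-/- livers. These groups were far apart, at 2.07 ± 0.18 (adjusted p = 2.74e-06) and 1.83 ± 0.18 (adjusted p = 8.98e-06). Bgn, which encodes biglycan, rose less, from 21.6 ± 2.92 to 33.0 ± 8.15 FPKM in WT (0.57 ± 0.15, adjusted p = 0.00682) and from 19.96 ± 2.13 to 30.2 ± 0.787 FPKM in Pctp-/- livers (0.58 ± 0.15, adjusted p = 0.00734). Without WT chow replicate 2 and WT MCD replicate 1, the WT call of Bgn was lost (0.28, adjusted p = 0.081), while Lum (2.27) and Dcn (1.75) were still called.

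Of the metalloproteinases, Mmp12 was close to undetected on chow and rose the most of all members. Mmp12 (chr9:7344381-7369499, plus strand) encodes macrophage metalloelastase. It was at 0.113, 0.0334 and 0.0432 FPKM in WT chow livers and at 52.9, 12.1 and 16.7 FPKM in WT MCD livers. The Pctp-/- livers were at 0.0444, 0.0341 and 0.139 FPKM on chow and at 25.7, 22.8 and 19.2 FPKM on MCD. No chow library came near any MCD library, and the change on the log2(FPKM + 1) scale was 4.45 ± 0.37 in both genotypes (adjusted p = 1.82e-06 in WT and 2.41e-06 in Pctp-/-), a scale that understates the change of a gene so low on chow. Mmp13, a collagenase encoded near Mmp12 (chr9:7272514-7283331, plus strand), was under the level for testing. It was at 0, 0.0279 and 0 FPKM in WT chow, 0.0372, 0.0285 and 0 in Pctp-/- chow, 1.94, 0.511 and 0.570 in WT MCD and 0.636, 0.489 and 0.550 FPKM in Pctp-/- MCD livers. The diets did not overlap, and the fit without a minimum level called Mmp13 higher in both genotypes (0.92 ± 0.20, adjusted p = 0.00481, and 0.61 ± 0.20, adjusted p = 0.0432). The gelatinase Mmp2 had means between 0.816 and 1.37 FPKM and the membrane-type protease Mmp14, which activates pro-MMP2, means between 20.4 and 25.8 FPKM, and neither was called. The gelatinase Mmp9 had means of at most 0.136 FPKM.

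Since 2 metalloproteinases went from near 0 on chow to higher levels on MCD, the promoters of the members were searched for the AP-1 motif TGANTCA, which reads the same on both strands and is a known element of metalloproteinase promoters. RefSeq promoter sequences of GRCm38.p6 were matched for 28 of the 44 genes, in 31 windows of the 250 bases before a transcript start. The motif was in 4 of the 31 windows (12.9%), and in 6.75% of the 32851 windows of all genes. The 120 bases before the start, 5′ to 3′ on the strand of the gene, are shown for these 4 because they include both risers and others, with the motif in capitals. They lie at chr9:7347254-7347373 on the plus strand for the second annotated start of Mmp12, at chr9:7272394-7272513 on the plus strand for Mmp13, at chr3:95739570-95739689 on the minus strand for Ecm1 and at chr10:76726045-76726164 on the minus strand for Col6a1.
Mmp12: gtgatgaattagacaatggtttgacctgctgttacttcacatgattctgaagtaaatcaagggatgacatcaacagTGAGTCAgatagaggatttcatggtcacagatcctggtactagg
Mmp13: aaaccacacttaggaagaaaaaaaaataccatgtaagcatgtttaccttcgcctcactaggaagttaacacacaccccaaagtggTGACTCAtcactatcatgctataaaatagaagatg
Ecm1: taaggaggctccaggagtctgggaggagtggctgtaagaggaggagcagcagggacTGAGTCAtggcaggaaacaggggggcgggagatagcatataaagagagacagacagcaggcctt
Col6a1: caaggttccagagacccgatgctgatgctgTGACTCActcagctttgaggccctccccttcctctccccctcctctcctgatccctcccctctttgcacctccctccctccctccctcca
The motif began 44 bases before the start in Mmp12, 35 in Mmp13, 64 in Ecm1 and 90 in Col6a1. For Mmp12 the only window with the motif was that of the second annotated start, inside the gene, which spans chr9:7344381-7369499. Of the 4 genes with it, Mmp12 and Mmp13 were higher on MCD, Ecm1 fell and Col6a1 was not called. The part of the motif in these changes was not tested.

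The tissue inhibitors of metalloproteinases differed among themselves. Timp1 (chrX:20870166-20874735, plus strand), the inhibitor induced in fibrosing liver, was at 0.0952, 0.0846 and 0.0730 FPKM in WT chow and at 3.21, 1.55 and 1.61 FPKM in WT MCD livers. On chow the Pctp-/- livers were at 0.113, 0.0864 and 0.0783 FPKM, and on MCD at 1.69, 0.935 and 0.971 FPKM. All MCD libraries were above all chow libraries, with changes of 1.49 ± 0.19 (adjusted p = 3.73e-05) in WT and 0.99 ± 0.19 (adjusted p = 0.000875) in Pctp-/- livers. Timp1 lies inside Syn1 on the opposite strand, and whether the counting used strand is not given in the sources used here. Timp2, the inhibitor that takes part in MMP2 activation, was at 4.37 ± 1.03 and 6.64 ± 2.64 FPKM in WT (adjusted p = 0.0914) and at 4.77 ± 1.07 and 7.45 ± 0.937 FPKM in Pctp-/- livers (adjusted p = 0.056). Cep295nl overlaps Timp2 on the same strand. Timp3, a matrix-bound inhibitor, was at 1.36 ± 0.578 and 2.22 ± 0.761 FPKM in WT (adjusted p = 0.0589) and at 1.12 ± 0.111 and 1.42 ± 0.132 FPKM in Pctp-/- livers (adjusted p = 0.431), and lies inside Syn3.

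In the signaling group, Ctgf and Pdgfra rose in both genotypes and Tgfb1 in WT livers. Tgfb1 (chr7:25687002-25705077, plus strand), the main fibrogenic cytokine, was at 4.60, 2.20 and 2.79 FPKM in WT chow and at 5.89, 4.66 and 5.15 FPKM in WT MCD livers. For Pctp-/- livers the levels were 4.52, 2.95 and 4.17 FPKM on chow and 4.35, 4.18 and 3.77 FPKM on MCD. The WT groups were separated only by the gap from 4.60 to 4.66 FPKM, the Pctp-/- groups overlapped, and the changes were 0.61 ± 0.19 (adjusted p = 0.0158) and 0.08 ± 0.19 (adjusted p = 0.755). The WT call was lost without WT chow replicate 2 or 3 or WT MCD replicate 1 (adjusted p from 0.0518 to 0.0755) or without both libraries that stood apart (0.36, adjusted p = 0.182), and the difference between genotypes was -0.53 ± 0.27 (adjusted p = 0.373). Tgfb2 and Tgfb3, the other TGF-beta ligands, had group means of at most 0.101 and 0.394 FPKM.

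Ctgf (annotated as Ccn2, chr10:24595442-24598683, plus strand), a matricellular protein induced by TGF-beta, was at 1.05, 1.35 and 2.59 FPKM on chow and at 5.71, 3.97 and 4.35 FPKM on MCD in WT livers. Pctp-/- livers on chow were at 2.63, 1.75 and 4.86 FPKM and on MCD at 4.98, 6.83 and 5 FPKM, where the highest chow liver lay just under the lowest MCD liver. The changes were 1.12 ± 0.27 (adjusted p = 0.00337) and 0.75 ± 0.27 (adjusted p = 0.0326), and the latter call was lost without Pctp-/- chow replicate 1 or 2 or any Pctp-/- MCD library (adjusted p from 0.0514 to 0.142), and in a fit of the Pctp-/- libraries alone (0.0515). Pdgfra (chr5:75152292-75198215, plus strand), a PDGF receptor of mesenchymal cells, was at 0.678, 0.421 and 0.677 FPKM on chow and at 4.31, 2.31 and 2.40 FPKM on MCD in WT livers, and at 1.01, 0.499 and 0.421 FPKM against 2.49, 2.02 and 1.86 FPKM in Pctp-/- livers. Both pairs of groups were apart, at 1.30 ± 0.19 (adjusted p = 0.000125) and 0.94 ± 0.19 (adjusted p = 0.00153). Pdgfrb, the receptor that marks activated stellate cells and pericytes, was not called, at 1.77 ± 0.215 and 2.31 ± 0.865 FPKM in WT and 1.82 ± 0.129 and 1.67 ± 0.157 FPKM in Pctp-/- livers.

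The contractile and intermediate filament genes split in the same way, with Vim rising in both genotypes and Acta2 not called. Acta2 (chr19:34241090-34255590, minus strand), which encodes the smooth muscle actin used to identify myofibroblasts, was at 1.46, 0.126 and 5.75 FPKM in WT chow and at 2.36, 1.59 and 0.708 FPKM in WT MCD livers. The Pctp-/- livers were at 1.79, 0.599 and 0.854 FPKM on chow and at 1.79, 1.97 and 1.51 FPKM on MCD. The WT chow livers alone spanned the values of all other groups, and the changes of -0.11 ± 0.49 (adjusted p = 0.858) and 0.45 ± 0.49 (adjusted p = 0.472) had the widest errors of any member. Without WT chow replicate 3, the WT change was 0.56 (adjusted p = 0.201).

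Tagln (chr9:45929619-45936058, minus strand), which encodes the actin-binding protein transgelin, was at 4.29, 3.25 and 7.68 FPKM on chow and at 16.2, 12.2 and 8.18 FPKM on MCD in WT livers, where it rose by 1.14 ± 0.28 on the log2 scale (adjusted p = 0.00462; 0.70 and adjusted p = 0.0813 without both libraries that stood apart). On chow the Pctp-/- livers were at 5.36, 4.28 and 5.45 FPKM, and on MCD at 12.5, 7.25 and 7.11 FPKM, without overlap but not called (0.69 ± 0.28, adjusted p = 0.0622). Pcsk7 overlaps Tagln on the opposite strand, and whether the counting used strand is not given in the sources used here. Des (chr1:75360329-75368579, plus strand), which encodes desmin, the intermediate filament of stellate and muscle cells, was at 1.24, 0.962 and 1.94 FPKM on chow and at 3.54, 3.03 and 1.44 FPKM on MCD in WT livers. The WT groups of Des overlapped, and its call (0.60 ± 0.21, adjusted p = 0.0254) was lost without WT chow replicate 1 or 2 or WT MCD replicate 1 or 2 (adjusted p from 0.0663 to 0.11), and in a fit of the WT libraries alone (0.0732). For Pctp-/- livers the levels were 1.41, 1.41 and 1.37 FPKM on chow and 1.55, 1.45 and 1.54 FPKM on MCD (0.07 ± 0.21, adjusted p = 0.807).

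Vim (chr2:13573927-13582826, plus strand), which encodes vimentin, the intermediate filament of mesenchymal cells and of leukocytes, was at 6.10, 3.37 and 7.44 FPKM on chow and at 24.7, 13.2 and 11.3 FPKM on MCD in WT livers. Pctp-/- livers on chow were at 5.42, 4.97 and 6.91 FPKM and on MCD at 15.4, 14.3 and 12.6 FPKM. Neither pair of groups overlapped, and the changes were 1.36 ± 0.27 (adjusted p = 0.00111) and 1.17 ± 0.27 (adjusted p = 0.00372).

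The 2 genes of the resting stellate cell, Lrat and Reln, rose as well. Of the other members also listed as stellate cell markers, Dcn rose in both genotypes and Des was called in WT livers only. Ecm1 fell in both genotypes, and Pdgfrb was called in neither. Lrat (chr3:82892579-82903973, minus strand), which encodes the acyltransferase that makes retinyl esters for storage and is a defining stellate cell marker in liver, was at 1.94, 1.02 and 1.61 FPKM in WT chow and at 8.52, 4.45 and 4.56 FPKM in WT MCD livers. The Pctp-/- livers were at 2.03, 1.51 and 1.2 FPKM on chow and at 4.16, 4.27 and 4.20 FPKM on MCD. Every MCD library was above every chow library, with changes of 1.41 ± 0.21 (adjusted p = 0.000143) and 1.03 ± 0.21 (adjusted p = 0.00162). Reln (chr5:21884454-22344702, minus strand), which encodes reelin, a secreted glycoprotein made in liver by stellate cells, was at 5.31, 2.60 and 3.34 FPKM on chow and at 9.05, 5.32 and 5.73 FPKM on MCD in WT livers. On chow the Pctp-/- livers were at 5.15, 3.32 and 3.40 FPKM, and on MCD at 8.02, 7.34 and 6.23 FPKM. The WT groups nearly touched at 5.31 and 5.32 FPKM, and the changes were 0.71 ± 0.23 (adjusted p = 0.0184) and 0.74 ± 0.23 (adjusted p = 0.0168). Both Reln calls depended on single libraries, with adjusted p from 0.0539 to 0.0847 without WT chow replicate 2 or 3 or WT MCD replicate 1 (0.258 without both libraries that stood apart), and from 0.0556 to 0.0615 without Pctp-/- chow replicate 2 or 3 or Pctp-/- MCD replicate 1. Dnaja1-ps and Gm16113 overlap Reln on the same strand.

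Other genes of the same pathways were examined from lists fixed with the members. Beside them, 34.5% of all genes tested rose and 22.5% fell on MCD in WT livers, and 26% rose and 24.4% fell in Pctp-/- livers. Of 17 tested stellate cell markers outside the 44 genes, 11 rose and 2 fell on MCD in WT livers (64.7% and 11.8%). In Pctp-/- livers 9 rose and 3 fell (52.9% and 17.6%). Among those that rose in both genotypes were Ednrb, an endothelin receptor (mean 1.98 to 5.08 FPKM in WT and 2.10 to 5.95 FPKM in Pctp-/-), and Rgs5, a regulator of G-protein signaling in pericytes (7.6 to 18.1 and 6.73 to 13.9 FPKM). The 19 listed markers summed to 74.3, 54.1 and 66.4 FPKM in WT chow and 139, 106 and 117 FPKM in WT MCD livers. For Pctp-/- livers the sums were 80.8, 60.7 and 81.0 FPKM on chow and 117, 112 and 110 FPKM on MCD. The lowest WT chow and the highest WT MCD sum belonged to the libraries that stood apart, and the counts were not repeated without them. Of 26 genes of TGF-beta and PDGF signaling, 10 rose and 5 fell in WT livers (38.5% and 19.2%). In Pctp-/- livers 6 rose and 8 fell (23.1% and 30.8%), so the list lay near the shares of all genes. Those called in both genotypes were led by falls of Ltbp4, which binds latent TGF-beta (-1.68 and -1.88), and Smad7, the inhibitory SMAD (-1.0 and -1.24), and a rise of the SMAD corepressor Skil (1.10 and 0.50).

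Of 14 enzymes that modify and assemble collagen, 3 rose and 4 fell in WT livers (21.4% and 28.6%). In Pctp-/- livers 2 rose and 6 fell (14.3% and 42.9%). The leading changes were falls of the procollagen C-proteinase Bmp1 (-1.48 in WT and -1.23 in Pctp-/-), the prolyl hydroxylase subunit P4ha2 (-1.14 and -1.08) and the lysyl hydroxylase Plod3 (-0.97 and -1.10). Among 30 other structural matrix genes, 10 rose and 10 fell in WT (33.3% each) and 7 rose and 7 fell in Pctp-/- livers (23.3% each). Smoc2, a matricellular protein, was higher by 3.02 and 1.98 and the laminin chain Lamb3 by 1.88 and 1.24. The fibrillar collagen Col27a1 was lower, at -2.39 and -2.63. Among 18 other matrix proteases and inhibitors, 8 rose and 3 fell in WT livers (44.4% and 16.7%). In Pctp-/- livers 7 rose and 3 fell (38.9% and 16.7%). Those called in both genotypes were led by the serine protease inhibitor Serpine2 (-2.25 and -1.84), the metalloproteinase Adam8 (1.64 and 1.44) and the urokinase Plau (1.49 and 1.05).

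Markers of other liver cells are given beside these genes. Of all genes tested, 34.5% rose and 22.5% fell on MCD in WT livers, and 26% rose and 24.4% fell in Pctp-/- livers. Most of the lists below are short, so counts near those shares say little about a cell type. Of 12 macrophage markers, 11 rose in WT and 6 in Pctp-/- livers, with summed levels of 85.4 to 140 FPKM on WT chow, 78.5 to 189 on Pctp-/- chow, 333 to 664 on WT MCD and 347 to 441 FPKM on Pctp-/- MCD. WT MCD replicate 1 had the highest of these sums, as it had for Mmp12, Timp1 and Vim. Of 8 hepatocyte markers, 5 fell and 1 rose in WT and 4 fell and 2 rose in Pctp-/- livers, while their sum, in the same order of groups, was 41779 to 46406, 44840 to 46910, 53517 to 60613 and 68789 to 74649 FPKM. Of the tested markers on MCD, 4 of 10 for sinusoidal endothelial cells rose and 1 fell in WT and 1 rose and 1 fell in Pctp-/- livers. For portal fibroblasts 1 of 6 rose in WT and 1 fell in Pctp-/- livers, and for smooth muscle cells 1 of 2 fell in each. For cholangiocytes 1 of 5 rose in WT and 2 fell in Pctp-/- livers, for mesothelial cells 1 of 4 rose in WT and none was called in Pctp-/- livers, for neutrophils 3 of 3 and 2 of 3 rose, and for lymphocytes 1 of 3 rose in WT and none was called in Pctp-/- livers. Summed sinusoidal endothelial markers were 72.6 to 95.5, 73.4 to 109, 102 to 129 and 92.1 to 107 FPKM in the same order, and neutrophil markers 0.689 to 1.35, 0.366 to 3.86, 18.8 to 24.2 and 6.22 to 14.8 FPKM. Portal fibroblast markers summed to 22.7 to 28.3, 26.2 to 28.9, 17.7 to 33.8 and 22.2 to 24.7 FPKM, and smooth muscle markers to 22.1 to 26.0, 18.1 to 22.9, 9.21 to 11.1 and 12.9 to 13.5 FPKM. No marker was at 0 in all 12 libraries. The part of these cells in the changes of the members was not tested.

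Between genotypes, no member was called. On chow, 0 of 36 members passed the threshold and 1 had an unadjusted p under 0.05, where 0.136% of all genes were called and 6.98% had such a p. That member was Ctgf, named after its values were seen, with a log2 fold change of 0.59 ± 0.27 in Pctp-/- against WT chow livers (adjusted p = 0.708). None of the 36 tested members had groups without overlap on chow, where 5.17% of all genes were higher and 5.38% lower in Pctp-/- livers without overlap. Among the members too low to test, Loxl2 was lower without overlap, at 0.172 to 0.208 FPKM against 0.239 to 0.435 FPKM in WT chow livers. The members' changes ran from -0.39 for Acta2 to 0.59 for Ctgf, with a median of 0.08 beside 0.01 over all genes, and 26 of 36 were above 0. Without WT chow replicate 2, 9 of 36 were above 0.

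On MCD, again 0 of 36 members were called and 5 had an unadjusted p under 0.05 (13.9%; Col4a1, Col18a1, Lum, Timp1 and Des), where 0.818% of all genes were called and 16.3% had such a p. Pctp-/- livers read lower than WT livers for 29 of 36 members, with a median of -0.16 beside -0.09 and 70.3% of genes below 0 over all genes. Without WT MCD replicate 1, 19 of 36 were lower and 17 higher, and the median was -0.01 beside -0.07 over all genes. Under median-of-ratios scaling 24 of 36 were lower and the median over all genes was -0.0068. The groups did not overlap for 7 of the 36 tested members, 6 of them lower in Pctp-/- livers (16.7%, beside 21.1% of all genes) and 1 higher (5.5% of all genes). Among the members too low to test, Mmp9 was also lower without overlap, at 0.0650 to 0.0838 FPKM against 0.116 to 0.175 FPKM.

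The 6 lower members, chosen for this separation and therefore given as a description, were Col4a1, Sparc, Lum, Timp3, Tgfb1 and Lrat, with log2 fold changes between -0.52 (Lum) and -0.29 (Tgfb1). Without WT MCD replicate 1 these lay between -0.29 (Col4a1) and -0.08 (Lrat). The higher member was Col18a1, at a mean of 125 ± 6.83 FPKM in Pctp-/- against 94.8 ± 2.96 FPKM in WT MCD livers (0.39 ± 0.10, unadjusted p = 0.00264, limma adjusted p = 0.103). Without WT MCD replicate 1 it was at 0.42, so it did not rest on that library. Timp1 was at -0.48 ± 0.19 (adjusted p = 0.225) and Des at -0.50 ± 0.21 (adjusted p = 0.259). Without WT MCD replicate 3, whose Des value of 1.44 FPKM lay below all 3 Pctp-/- MCD livers, Des became the only member called, at -0.77 ± 0.16 (adjusted p = 0.0407).

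**Figure D4:**
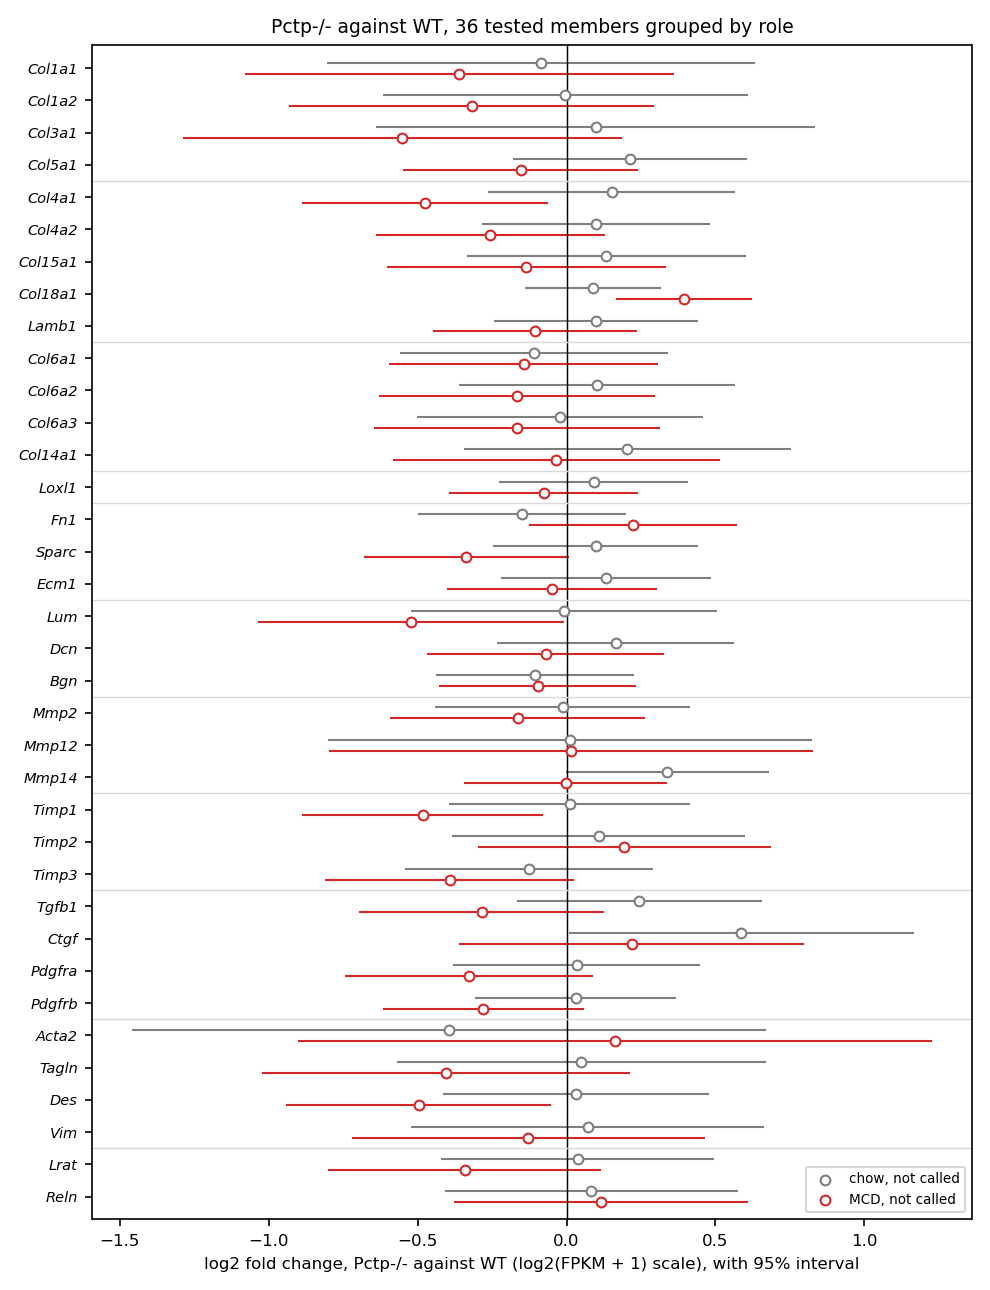
The log2 fold change of Pctp-/- against WT livers on the log2(FPKM + 1) scale is plotted on the horizontal axis for the 36 tested members on chow (grey) and on MCD (red), with 95% intervals from limma and open points because none was called. On MCD 29 of 36 points lie left of 0, and Col18a1, at 0.39, has an interval above it.

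Whether the knockout changed the response to MCD was tested as the difference of the diet effects. No member was called and 1, Col4a1, had an unadjusted p under 0.05 (-0.63 ± 0.27, limma adjusted p = 0.296), where 0.0963% of all genes were called and 15.1% had such a p. The difference, Pctp-/- minus WT, was below 0 for 29 of 36 members, with a median difference of -0.27 beside -0.10 over all genes. Without WT chow replicate 2 and WT MCD replicate 1, the difference was negative for 15 and positive for 21 members and its median was 0.04. With 3 mice a group, the 95% interval of the difference for Col1a1 ran from -1.29 to 0.74 and that for Acta2 from -0.95 to 2.06, so neither was measured closely.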

How the data were processed

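RNA-seq of whole liver was analysed from 12 libraries of 4 groups, with 3 mice a group, grouped by the labels of genotype and diet. The authors deposited a single table with the FPKM of each gene in each library. The build named in the submitters' processing notes is mm10, and the aligner, counting tool, strand setting and annotation are not given in the sources used here. FPKM divides by length and depth, so no count per gene and no counting error was available. A second deposited table holds other measures, namely read totals and mapping and quality percentages, and was used to describe depth and read quality.

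Genes with a mean of at least 0.5 FPKM were tested with limma 3.58.1 in R 4.3.3 on log2(FPKM + 1), which understates changes of low genes, with 1 mean per group, a mean-variance trend and two-sided tests. The study used a Wald test, for which limma on log values stands in here. P-values were adjusted over 12466 genes by the Benjamini-Hochberg method, with calls at an adjusted p under 0.05 and no minimum fold change. Errors of fold changes are SE, and those of means are SD over 3 mice.

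The members and lists were chosen with earlier results of these data known. Values in every library are given for Col1a1, Col1a2, Col3a1, Acta2, Timp1, Tgfb1, Lrat, Reln and Des and for up to 10 members called in each diet contrast, by size of change, and for other members where a statement turns on them. Pathway lists are given by counts with up to 3 genes, those called in both genotypes with the largest mean change. A gene that this rule names is not reported here. Symbols and positions come from GENCODE M21 (GRCm38), with Ctgf matched as Ccn2, and promoters from RefSeq (GRCm38.p6).

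The labels give every group the replicate numbers 1 to 3, which name different mice. Correlations of the deviations of same-numbered libraries ran from -0.10 to 0.20, so the numbers were not taken to pair the mice. No pair of libraries held identical values. Alternatives were the pseudocount, the filter, the scaling, a replicate block, the options of limma, the libraries in the fit, a minimum fold change and leaving out each library. Plots were drawn with matplotlib in Python.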

Additional observations from a re-analysis of the deposited data

How the results depend on the processing

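The 5 counts of called members were recomputed under the alternatives, except that a fit of only the libraries compared, which for the difference of the diet effects would be all 12, was not repeated for it. The count for MCD in WT livers, 20, became 12 with a minimum of 5 FPKM, where 17 members were tested and 4448 of 6836 genes were called, and 11 with a minimum log2 fold change of 1, where 1777 of 12466 genes were called. The count for MCD in Pctp-/- livers, 17, became 9 and 6, beside 4047 and 1343 genes. With 1 library left out, the counts ran from 16 to 21 in WT and from 12 to 18 in Pctp-/- livers, from 0 to 1 for the knockout on MCD (1 without WT MCD replicate 3), and were 0 for the knockout on chow and for the difference of the diet effects. Over all 12466 genes the calls on MCD ran from 6171 to 7492 in WT and from 5254 to 6516 in Pctp-/- livers. For the knockout they ran from 27 to 173 on MCD and from 8 to 34 on chow, and for the difference from 0 to 60. The replicate numbers gave no pairing, and a replicate block gave 23 and 18 calls for MCD and 0 for the knockout on chow, the knockout on MCD and the difference. Over all genes the block gave 7202 and 6430 calls for MCD, and 32, 115 and 59 for the others in that order.

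Of 1223 alternatives of 52 log2 fold changes, 1136 kept direction and side of the threshold, 72 lost the call, 2 gained one and 13 changed sign. None of the reversed fold changes had been called. Col1a1 in WT on MCD ranged from -0.84 to 0.041 with libraries left out, above 0 without WT chow replicate 1, WT MCD replicate 2 or WT MCD replicate 3, and was called only at -0.84, without WT chow replicate 2 and WT MCD replicate 1 together. Acta2 in WT became 0.23 with a pseudocount of 0.1, 0.15 without WT MCD replicate 3, and ranged from -0.95 to 0.56 with libraries left out. In Pctp-/- livers Col3a1 became -0.029 with median-of-ratios scaling and -0.042 rescaled to a common total, and ranged from -0.19 to 0.20 with 1 library left out. Without both WT chow replicate 2 and WT MCD replicate 1, Col1a2 became -0.096 and Col3a1 -0.023 in WT, the lowest of ranges that reached 0.72 and 0.93 without WT MCD replicate 3, and Bgn (adjusted p = 0.081), Lamb1 (0.0769) and Tagln (0.0813) lost their calls there with Col4a2, Des, Reln and Tgfb1. The causes were not tested. With 3 mice a group and no counts, changes of members near the minimum level are the least certain.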
